A study of Homo sapiens with 24 samples.

Results

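RELA knockdown was examined in spheroids of the epithelial ovarian cancer line OV90, an established cell line, by comparing the 4 shRELA libraries with the 4 shNeg libraries of the same culture, 8 of the 24 small RNA libraries of the series. The shRELA cells carried an inducible shRNA against RELA and the shNeg cells an inducible negative control shRNA, which the labels list under the genotype Wildtype. Doxycycline at 1 µg/ml for 72 h was given to every group, controls included, so any effect of the drug was shared. Spheroids were grown on ultra-low attachment plastic in a defined medium with EGF and FGF, a condition used to enrich tumor-initiating cells, whereas the adherent libraries came from cells in serum. The other 16 libraries held shRELB spheroids and the adherent shNeg, shRELA and shRELB cells, in 4 replicates each. The labels do not say that replicates came from separate cultures, so the p-values measure only the spread between these libraries.

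A microRNA (miRNA) is cut from 1 arm of a hairpin transcript, the 5p or the 3p arm, and guides a silencing complex to mRNAs that pair with its seed, bases 2 to 8 from its 5′ end. miRNAs with one seed form a family, and hairpins that lie close together are often transcribed as one precursor. RELA (p65) is the main transactivating subunit of canonical NF-κB, which switches on inflammatory and survival genes, among them miR-155 and miR-146a. RELB acts in the non-canonical branch. The mRNA of RELA is not read by miR-seq, and the degree of silencing cannot be read from these data.

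Sequences are shown for the miRNAs on which the results turn, with the seed in capitals, from RefSeq (GRCh38.p14). The let-7 family comes first because its members carried 1 seed and still moved in opposite directions.
let-7a-5p: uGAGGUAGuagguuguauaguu
let-7d-5p: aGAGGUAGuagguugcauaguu
let-7e-5p: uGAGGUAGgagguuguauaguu
let-7f-5p: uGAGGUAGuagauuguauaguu
let-7g-5p: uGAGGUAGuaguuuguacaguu
let-7i-5p: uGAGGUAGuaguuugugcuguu
miR-98-5p: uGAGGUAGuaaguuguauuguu
let-7b-5p: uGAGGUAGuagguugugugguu
let-7c-5p: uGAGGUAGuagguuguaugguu

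The next set holds other miRNAs that the results below describe in full, several of them from neighbouring hairpins. The last 3 of them are among those highest in 1 control library.
miR-30a-5p: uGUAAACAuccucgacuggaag
miR-30a-3p: cUUUCAGUcggauguuugcagc
miR-30c-2-3p: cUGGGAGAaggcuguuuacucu
miR-155-5p: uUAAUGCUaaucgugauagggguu
miR-125b-5p: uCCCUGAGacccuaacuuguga
miR-224-5p: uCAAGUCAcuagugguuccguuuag
miR-452-5p: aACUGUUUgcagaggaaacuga
miR-335-5p: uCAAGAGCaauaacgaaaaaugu
miR-4516: gGGAGAAGggucggggc
miR-7704: cGGGGUCGgcggcgacgug
miR-4488: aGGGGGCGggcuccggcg

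The library totals set the precision. They ran from 959141 to 1580252 counts with shNeg and from 2024133 to 2747599 with shRELA, so every control library was shallower than every knockdown library, and depth and knockdown cannot be told apart in these 8 libraries. A count of 0 allows up to 3 counts, worth 1.14 to 2.29 CPM (counts scaled to a common library size by the TMM method, as throughout), which covers counting error only. One library stood apart: shNeg replicate 1 had counts for 432 miRNAs, against 813 to 885 in the other 3 shNeg libraries and 853 to 912 with shRELA. In it, 37.2% of the miRNAs of middle abundance were at 0. Where a count of called members in a miRNA family or list changed without this library, that count or the members lost are given as well. Counts of hairpin clusters and of hairpins with a single called arm are given with all libraries only. Among the shRELA libraries, replicate 1 differed most from the rest, with 29.8% of its counts on let-7a-5p and let-7e-5p, against 36.0% to 37.3%.

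Of the 7 epithelial marker miRNAs, miR-200c-3p and miR-205-5p were abundant, at 1641 CPM or more and 866 CPM or more in every one of the 8 libraries, while miR-429 had at most 1 count. The summed epithelial level was 3238 to 4631 CPM with shNeg and 4490 to 8001 CPM with shRELA. Its 2 abundant members went opposite ways. miR-200c-3p was at 1641 to 2387 CPM with shNeg and 3376 to 6784 CPM with shRELA, and miR-205-5p at 1433 to 2622 CPM and 866 to 1148 CPM. Markers of other cell types summed to 17633 to 25563 CPM with shNeg and 15758 to 17304 CPM with shRELA, almost all of it miR-122-5p, a liver miRNA. Without it, the sums were 1251 to 1665 CPM and 1333 to 1882 CPM. Of these 17 markers, 14 were tested, 0 were called higher and 2 lower by edgeR's quasi-likelihood test (miR-486-5p and miR-143-3p; without shNeg replicate 1 also miR-145-5p, at -1.45), and 4 never exceeded 3 counts, among them the erythroid miR-451a. Over all miRNAs tested, 7.51% were called higher and 7.62% lower. The part of other cells in the results was not tested.

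Between shRELA and shNeg spheroids, 137 of the 905 miRNAs tested were called, or 15.1%, with 68 higher (7.51%) and 69 lower (7.62%) with shRELA. The higher group held most of the let-7 family, the miR-30a and miR-30c-2 hairpins, miR-155-5p and the cluster of miR-183, miR-96 and miR-182. The lower group held let-7b-5p, let-7c-5p, miR-125b-5p, miR-224-5p and a set of miRNAs led by miR-4516. A miRNA was called when its adjusted p (FDR) in edgeR's quasi-likelihood test was below 0.01 and its fold change above 2. With every library thinned to the smallest total, 72 were called. With only the groups compared in the fit, 66 of 652 were. The groups did not overlap for 22.5% of the 905, and 118 of these were called. Among the 69 miRNAs with at least 1000 CPM, 16 were called higher and 7 lower. The median of called miRNAs was 1.51 on the log2 scale for those higher and -2.02 for those lower, against 0.09 over all 905. In these bulk samples, a change in level per cell and a change in the mix of cells cannot be told apart.

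**Figure D1:**
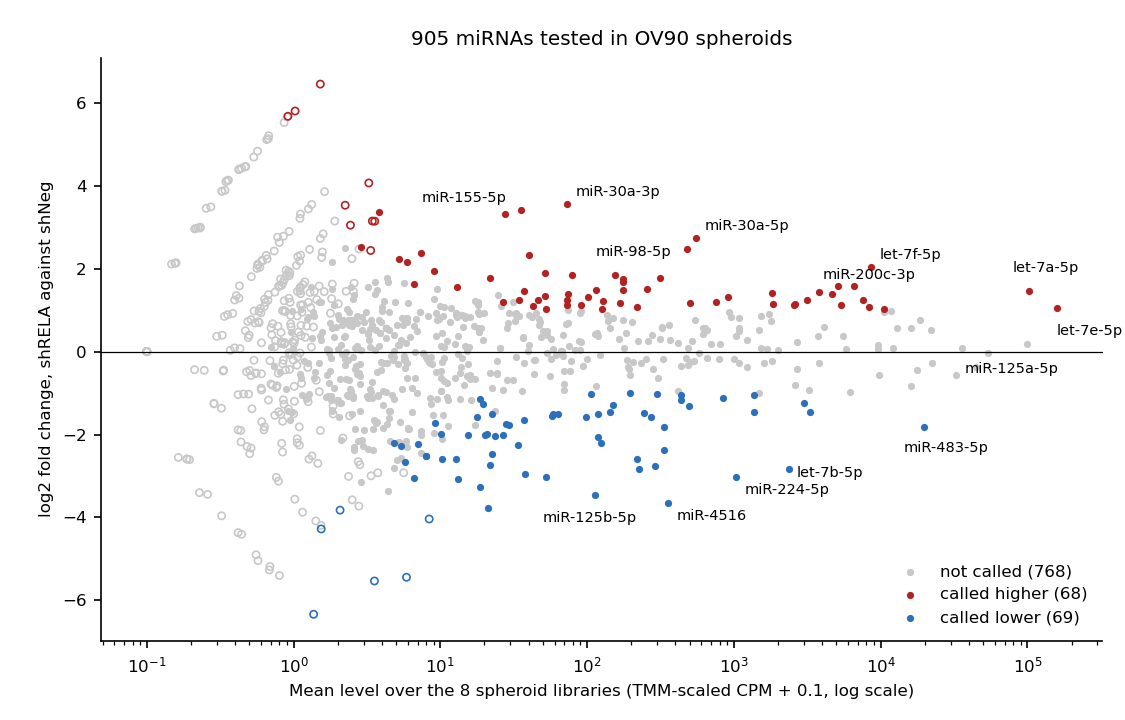
Mean level over the 8 spheroid libraries (horizontal, TMM-scaled CPM + 0.1, log scale) against the log2 fold change of shRELA over shNeg (vertical) for the 905 miRNAs tested, with 68 called higher in red and 69 lower in blue. Open points had at most 3 counts in every library of at least 1 group, where the fitted fold change depends on the prior count; the abundant let-7a-5p and let-7e-5p lie at the right above 0.

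The balance between rises and falls depended on the scaling, whereas the number of calls did not. With TMM, 49.6% of calls were higher. With median-ratio size factors the share was 34.8% of 135 calls and with library totals it was 19.1% of 136, because the median of all miRNAs moved by -0.10 and -0.35 on the log2 scale. Without shNeg replicate 1, 114 miRNAs were called, 55 higher and 59 lower. Of the 137, 98 remained, all with the same direction, 39 were lost (18 higher and 21 lower) and 16 were gained.

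Among called miRNAs averaging 10 CPM or more with separate groups, the highest log2 fold changes were those of 2 hairpins in LINC00472 on chromosome 6 and of miR-155-5p. miR-30a-3p was at 9.53, 13.0, 12.3 and 10.5 CPM in the 4 shNeg libraries and at 126, 130, 145 and 137 CPM in the shRELA libraries. Its log2 fold change was 3.56 ± 0.24 (SE; FDR = 1.32e-13, edgeR). The other arm of the hairpin, miR-30a-5p, moved with it, from 181.9, 108, 132 and 154 CPM to 1070, 918, 849 and 1020 CPM (2.74 ± 0.21). The hairpin lies at chr6:71403551-71403621 on the minus strand, in an intron of LINC00472.

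miR-30c-2-3p, from the hairpin at chr6:71376960-71377031 in an exon of the same host gene, rose from 13.2, 1.53, 3.59 and 6.32 CPM to 85.8, 60.4, 57.3 and 55.5 CPM, with a log2 fold change of 3.41 ± 0.38. The groups of all 3 miRNAs were far apart. Of 11 miR-30 family arms tested, 5 were called higher and 0 lower by edgeR's quasi-likelihood test, beside 7.51% and 7.62% of all miRNAs. Their median was 1.17 on the log2 scale, or 1.02 with members at the count floor set to their bound. The 2 other calls, miR-30c-5p (1.17 ± 0.25) and miR-30e-3p (1.02 ± 0.25), were lost without shNeg replicate 1, where their log2 fold changes were 0.95 and 0.77. miR-30e-5p, the reference miRNA of the study's qRT-PCR, had a log2 fold change of 0.20 ± 0.20 and was not called. The whole family took 0.719% to 0.936% of the counts with shNeg and 0.707% to 0.939% with shRELA. These shares are of counts without TMM scaling, so they are not comparable with the TMM-scaled rises of the 2 hairpins on chromosome 6.

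miR-155-5p is made from the host RNA of the B-cell integration cluster and is a known target of NF-κB in immune cells. It was at 0, 5.35, 7.70 and 6.32 CPM with shNeg and at 29.99, 42.5, 47.4 and 79.8 CPM with shRELA. The groups did not overlap, and the log2 fold change was 3.31 ± 0.38 (FDR = 3.42e-08, edgeR), or 2.93 without shNeg replicate 1, the library at 0.

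Of the other miRNAs among the 10 highest, miR-98-5p belongs to the let-7 family and rose from 77.0, 163, 193 and 155 CPM to 568, 949, 896 and 841 CPM (2.46 ± 0.25). miR-551b-5p rose from 0, 9.16, 25.7 and 16.8 CPM to 82.0, 62.5, 58.6 and 67.6 CPM. miR-151a-5p, from an intron of the focal adhesion kinase gene PTK2, rose by 1.84 ± 0.28 on the log2 scale. miR-151b had nearly the same sequence and the same log2 fold change of 1.84, so reads of the pair may have been split between them and they count as 1 observation. All 10 were still called without shNeg replicate 1.

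**Figure D2:**
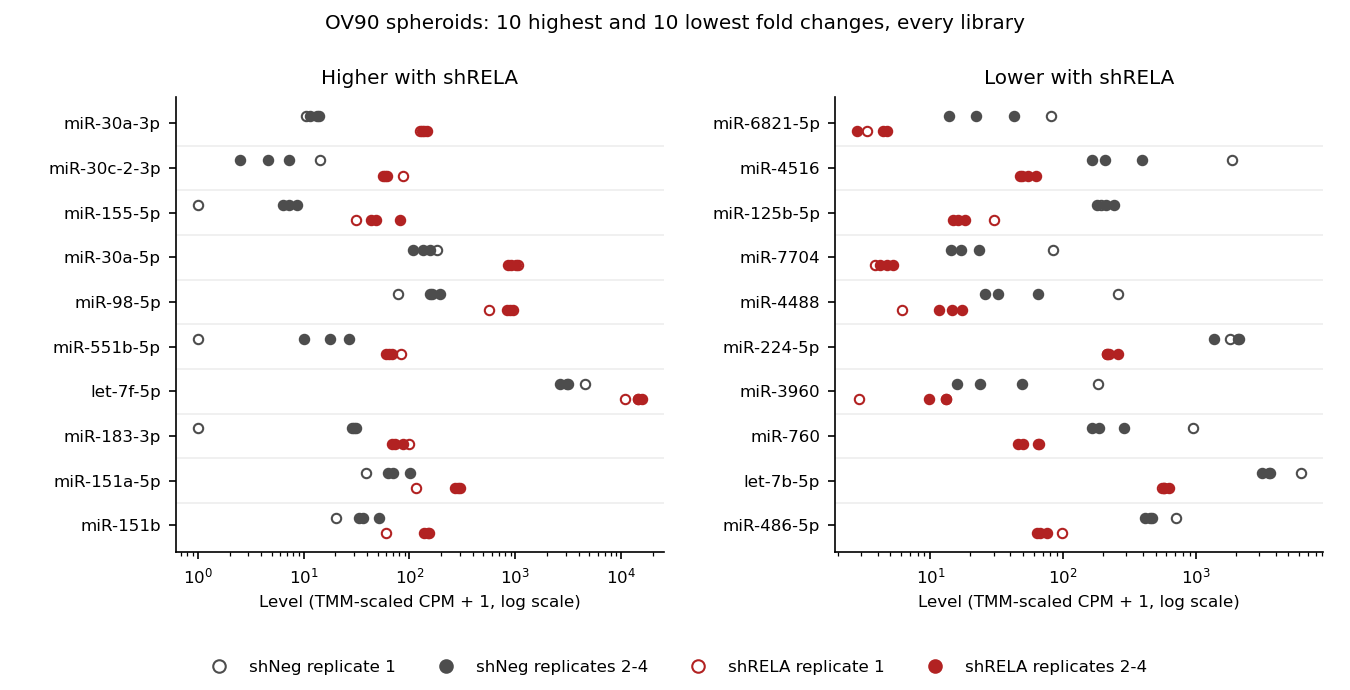
Level in every spheroid library (TMM-scaled CPM + 1, log scale) of the 10 called miRNAs with the highest and the 10 with the lowest log2 fold changes, restricted to separate groups and a mean level of 10 CPM or more. Open points are replicate 1 of each group; shNeg replicate 1 lies at 0 CPM for miR-155-5p, miR-551b-5p and miR-183-3p and far above the other shNeg libraries for miR-4516, miR-7704 and miR-4488.

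The let-7 family was split. These miRNAs repress RAS and HMGA2 and mark differentiated cells, and their 5p arms share the seed shown above. Of the 10 miRNAs tested with this seed, miR-4458 among them, 6 were called higher and 2 lower. Of 15 arms tested, including 3p arms with other seeds, 8 were called higher and 2 lower, beside 7.51% and 7.62% of all miRNAs. The median log2 fold change of the 15 was 1.04, or 0.52 with arms at the count floor set to their bound. Without shNeg replicate 1, 6 were higher and 1 lower, and let-7e-3p, let-7f-1-3p and let-7c-5p were lost. let-7a-5p rose from 55211, 56319, 57678 and 49754 CPM to 123181, 165838, 150856 and 162889 CPM, a log2 fold change of 1.46 ± 0.13 (FDR = 1.8e-10, edgeR). let-7e-5p, the most abundant miRNA of these spheroids, rose from 121063, 95810, 106292 and 92592 CPM to 201945, 231226, 207546 and 216104 CPM (1.04 ± 0.13). Every shRELA library was above every shNeg library for both.

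Among the less abundant members, let-7f-5p rose by 2.04 ± 0.21, let-7d-5p by 1.59 ± 0.20 and let-7g-5p by 1.58 ± 0.22 on the log2 scale. let-7i-5p was at 28168, 16304, 15781 and 12265 CPM with shNeg and at 20507 to 28907 CPM with shRELA, and at 0.52 ± 0.19 it was not called. In contrast, let-7b-5p fell from 6197, 3572, 3653 and 3150 CPM to 560, 577, 623 and 579 CPM, a log2 fold change of -2.82 ± 0.19 (FDR = 1.3e-13, edgeR). let-7c-5p fell from 1646, 1074, 996 and 900 CPM to 450, 624, 484 and 554 CPM (-1.13 ± 0.17). The groups of both were separate, although let-7c-5p was no longer called without shNeg replicate 1, at -0.91.

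Taken as a share of counts, the family went from between 21.96% and 25.01% in the shNeg spheroids to between 34.3% and 43.5% in the shRELA spheroids, and was 31.0% to 35.5% in the shRELB spheroids. In adherent cells it was 22.5% to 23.0% with shNeg and 24.7% to 26.5% with shRELA. Within the family, let-7b-5p and let-7c-5p together made up 2.38% to 3.57% with shNeg and 0.257% to 0.270% with shRELA. With library totals in place of TMM, let-7a-5p (1.07), let-7d-5p, let-7f-5p and let-7g-5p were still called and let-7e-5p (0.66) was not. In all, let-7e-5p lost its call in 7 of 21 alternatives, among them median-ratio size factors, DESeq2 and leaving out shNeg replicate 2 or 4.

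**Figure D3:**
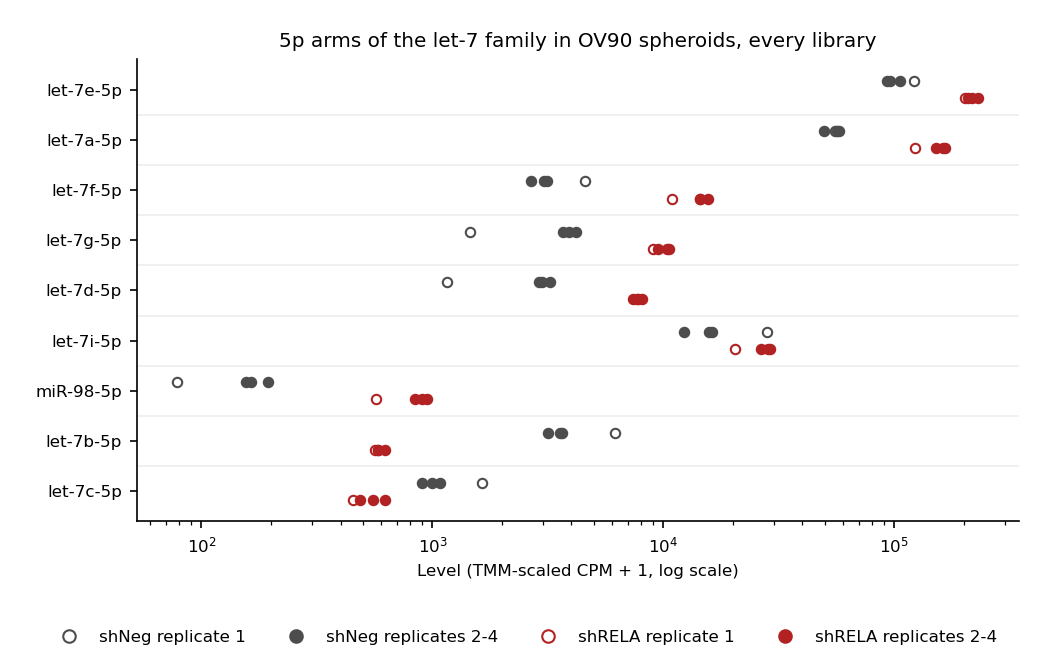
Level in every spheroid library (TMM-scaled CPM + 1, log scale) of the 9 mature 5p miRNAs that make up the let-7 family. The shRELA points lie to the right of the shNeg points for let-7e-5p, let-7a-5p, let-7f-5p, let-7g-5p, let-7d-5p and miR-98-5p, to the left for let-7b-5p and let-7c-5p, and overlap for let-7i-5p.

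The members differ by few bases, so the authors' counting could move reads between them. Counted from 1 at the 5′ end, let-7a-5p becomes let-7c-5p by A19G, let-7e-5p by U9G, let-7f-5p by G12A and let-7b-5p by A17G and A19G. The change A19G was held by both members that fell and by none of the others. The genes lie apart as well. let-7b-5p is encoded at chr22:46113686-46113768 and let-7c-5p at chr21:16539828-16539911, whereas let-7e-5p is encoded at chr19:51692786-51692864 in an intron of SPACA6. let-7d-5p and copies of let-7a and let-7f lie within chr9:94175957-94178920, where 4 of 6 arms were called higher and 0 lower. The second copy of let-7f and miR-98 lie in an intron of HUWE1 within chrX:53556223-53557274, and both mature miRNAs were higher. A copy of let-7a also lies beside let-7b on chromosome 22, in the host MIRLET7BHG. let-7a-5p is made from several loci, and the output of each was not measured.

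miR-99a and let-7c share the host MIR99AHG on chromosome 21, and their 3 tested arms were called lower. miR-125b, whose paralogs lie near this locus and near miR-100 on chromosome 11, is a homolog of the first miRNA known to time development in worms. miR-125b-5p fell from 191, 179, 210 and 243 CPM to 29.1, 17.3, 13.9 and 15.2 CPM, a log2 fold change of -3.45 ± 0.23 (FDR = 1.3e-13, edgeR). The 4 shRELA libraries were far below the 4 shNeg libraries. miR-125b-2-3p, the other arm of the copy on chromosome 21, averaged 3.69 CPM and was not called (-1.06 ± 0.62).

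miR-99a-5p was at 0, 13.0, 5.64 and 16.8 CPM with shNeg and at 2.81, 1.58, 0.895 and 1.90 CPM with shRELA, and it was called (-2.26 ± 0.54) although the groups overlapped, and not without shNeg replicate 4. miR-99a-3p and miR-100-5p were at the count floor with shRELA. The call for miR-100-5p rested on shNeg replicate 4, at 24.6 CPM against 0 to 2.57 CPM in the other 3, and was lost without it. Of the 9 arms of the miR-99/100 and miR-125 families tested, 0 were called higher and 4 lower by edgeR's quasi-likelihood test. Over all miRNAs the shares were 7.51% and 7.62%. The abundant paralogs on chromosome 19, beside let-7e, were not called: miR-125a-5p had a log2 fold change of 0.18 ± 0.17 and miR-99b-5p of -0.57 ± 0.19.

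miR-224-5p and miR-452-5p overlap GABRE on the X chromosome within chrX:151958578-151959712, and both fell. miR-224-5p was at 1811, 1377, 2067 and 2116 CPM with shNeg and at 220, 212, 212 and 260 CPM with shRELA, with a log2 fold change of -3.03 ± 0.22 (FDR = 3.44e-13, edgeR). miR-452-5p was at 39.6, 8.40, 6.16 and 8.42 CPM with shNeg and at 1.41, 1.58, 0.448 and 0.380 CPM with shRELA, or 89 counts against 8 in all. The groups of neither overlapped.

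The ratio of the summed counts of miR-452-5p was 16.4-fold lower, with a 95% exact (Clopper-Pearson) counting interval of 7.96 to 39.1, and shNeg replicate 1 held its highest value. It was called in the fit (FDR = 4.38e-06, edgeR), and still was without that library, where its fitted log2 fold change went from -4.04 to -3.02. The nearby GABRA3 locus behaved differently: miR-105-5p (0.44 ± 0.19), miR-105-3p (-0.09 ± 0.70) and miR-767-5p (-0.03 ± 0.16) were not called.

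The study singled out 15 of these miRNAs on these same samples, so their changes here are not independent evidence of a direction; they include miR-30a, miR-155-5p, let-7b-5p, miR-100-5p, miR-224-5p, miR-452-5p and miR-105 above. Of the other 6, 2 were called higher and 1 lower. miR-200c-3p, which represses ZEB1 and ZEB2 and holds cells in an epithelial state, rose from 1641, 2387, 2169 and 1941 CPM to 3376, 6294, 5751 and 6784 CPM (1.45 ± 0.20). It was the 1 called arm of 8 tested in the miR-200 family and miR-141, beside 7.51% called higher over all miRNAs. miR-34a-5p, a target of p53, rose from 526, 861, 1349 and 1280 CPM to 3196, 2644, 2454 and 2337 CPM (1.40 ± 0.21). The groups of both were separate.

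miR-552-5p was at 0, 12.2, 16.9 and 16.8 CPM with shNeg and at 1.87, 2.63, 3.13 and 2.28 CPM with shRELA, so shNeg replicate 1 lay below every shRELA library. It was called lower (-2.22 ± 0.63), but lost the call in 11 of 20 alternatives, among them leaving out any 1 of the other 7 libraries. miR-205-5p was at 1543, 1433, 2296 and 2622 CPM with shNeg and at 1007, 939, 866 and 1148 CPM with shRELA. Its FDR was 5.51e-05 in edgeR's quasi-likelihood test, but at a log2 fold change of -0.996 ± 0.18 it stayed just short of the required fold. It was called in 12 of 21 alternatives, among them the fit without shNeg replicate 1 (-1.10). miR-335-5p, from an intron of the imprinted gene MEST, was at 0, 33.6, 27.2 and 45.6 CPM with shNeg and at 7.97, 13.7, 3.58 and 6.46 CPM with shRELA. It was not called (-1.77 ± 0.53, FDR = 0.0112, edgeR) and was called at -2.18 without shNeg replicate 1, the library at 0. miR-675-5p, cut from the imprinted RNA H19, had at most 2.29 CPM in any of the 8 libraries and was not called.

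Of 19 arms of miRNAs known as NF-κB targets, 2 were called higher and 2 lower, near the share over all miRNAs (7.51% and 7.62%), and the median log2 fold change was 0.58. Besides miR-155-5p, miR-224-5p and miR-452-5p, the call was miR-221-5p (1.45 ± 0.22). miR-146a-5p, which is induced by NF-κB and represses TRAF6 and IRAK1, was at 11077, 12808, 15896 and 15556 CPM with shNeg and at 21204, 25288, 22197 and 24499 CPM with shRELA. Its groups were separate and its FDR was 0.000987 in edgeR's quasi-likelihood test, but its log2 fold change of 0.75 ± 0.17 did not reach the fold threshold. miR-21-5p had a log2 fold change of 0.58 ± 0.22 and was not called.

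Counts in the groups that follow stand beside 7.51% called higher and 7.62% lower over all miRNAs. For miR-183, miR-96 and miR-182, found in sensory cells and abundant in many carcinomas, all 5 arms tested were called higher, with and without shNeg replicate 1. miR-183-5p rose from 2242, 1706, 1795 and 1737 CPM to 4046, 4649, 4285 and 4663 CPM (1.24 ± 0.15) and miR-182-5p by 1.12 ± 0.18. The rises of miR-96-5p (1.495 ± 0.42) and miR-183-3p (1.89 ± 0.39) were larger in the presence of shNeg replicate 1, where they had 0.733 and 0 CPM. miR-96-5p lost its call in 11 of 21 alternatives, among them leaving out any 1 shRELA library and median-ratio size factors. The cluster took 0.434% to 0.458% of the counts with shNeg and 0.667% to 0.826% with shRELA.

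Of 8 arms of the miR-302 to miR-367 and miR-371 to miR-373 clusters, miRNAs of pluripotent stem cells, 4 were called higher and 0 lower by edgeR's quasi-likelihood test, or 3 without shNeg replicate 1, where miR-302a-3p was lost. Their levels stayed low. miR-302a-5p rose from 91.7, 95.5, 68.7 and 54.8 CPM to 160, 185, 173 and 203 CPM (1.22 ± 0.22), while the other 3 (miR-302a-3p, miR-302b-3p and miR-302d-3p) reached at most 11.6 CPM. The 8 arms had a median of 2.44 on the log2 scale, or 1.13 with the 5 at the count floor set to their bound.

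In the group of miR-15, miR-16, miR-103 and miR-107, which represses BCL2 and cell cycle genes, 4 of 17 arms were called higher and 0 lower by edgeR's quasi-likelihood test. miR-16-5p rose from 5685, 3950, 4224 and 4059 CPM to 7688, 11967, 10680 and 11980 CPM (1.24 ± 0.19). miR-15b-5p (1.13 ± 0.26) and miR-15b-3p were lost without shNeg replicate 1, and miR-107 (1.31 ± 0.22) was not. In the group of miR-148, miR-152, miR-130, miR-301 and miR-454, 7 of 15 arms were called higher and 0 lower, with miR-148a-3p (1.15 ± 0.26) the most abundant of the 7. Without shNeg replicate 1 it was 5, and miR-130a-3p and miR-454-5p were lost. In the X-linked cluster from miR-532 to miR-660, 3 of 15 were called higher, or 2 without shNeg replicate 1.

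Of the 22 arms of miR-17-92 and its paralog clusters, targets of MYC, 2 were called higher, miR-17-5p (1.78 ± 0.28) and miR-19b-1-5p, the second at the count floor with shNeg and not called without shNeg replicate 1. miR-93-5p and miR-92a-3p, the most abundant of them, had log2 fold changes of -0.03 ± 0.17 and -0.36 ± 0.16. No member of the miR-23/24/27 (9 arms), miR-181 (8) and miR-320/484 (7) groups was called in either direction by edgeR's quasi-likelihood test. The miR-29 family, which represses collagens, had 1 of 6 arms higher (miR-29b-1-5p, 1.68 ± 0.33) and 1 lower (miR-29c-3p, -1.59 ± 0.29). Among the HOX-linked miR-10 and miR-196, 1 of 9 was higher (miR-196b-5p, 1.19 ± 0.21), or 2 without shNeg replicate 1, with miR-196a-5p added.

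**Figure D4:**
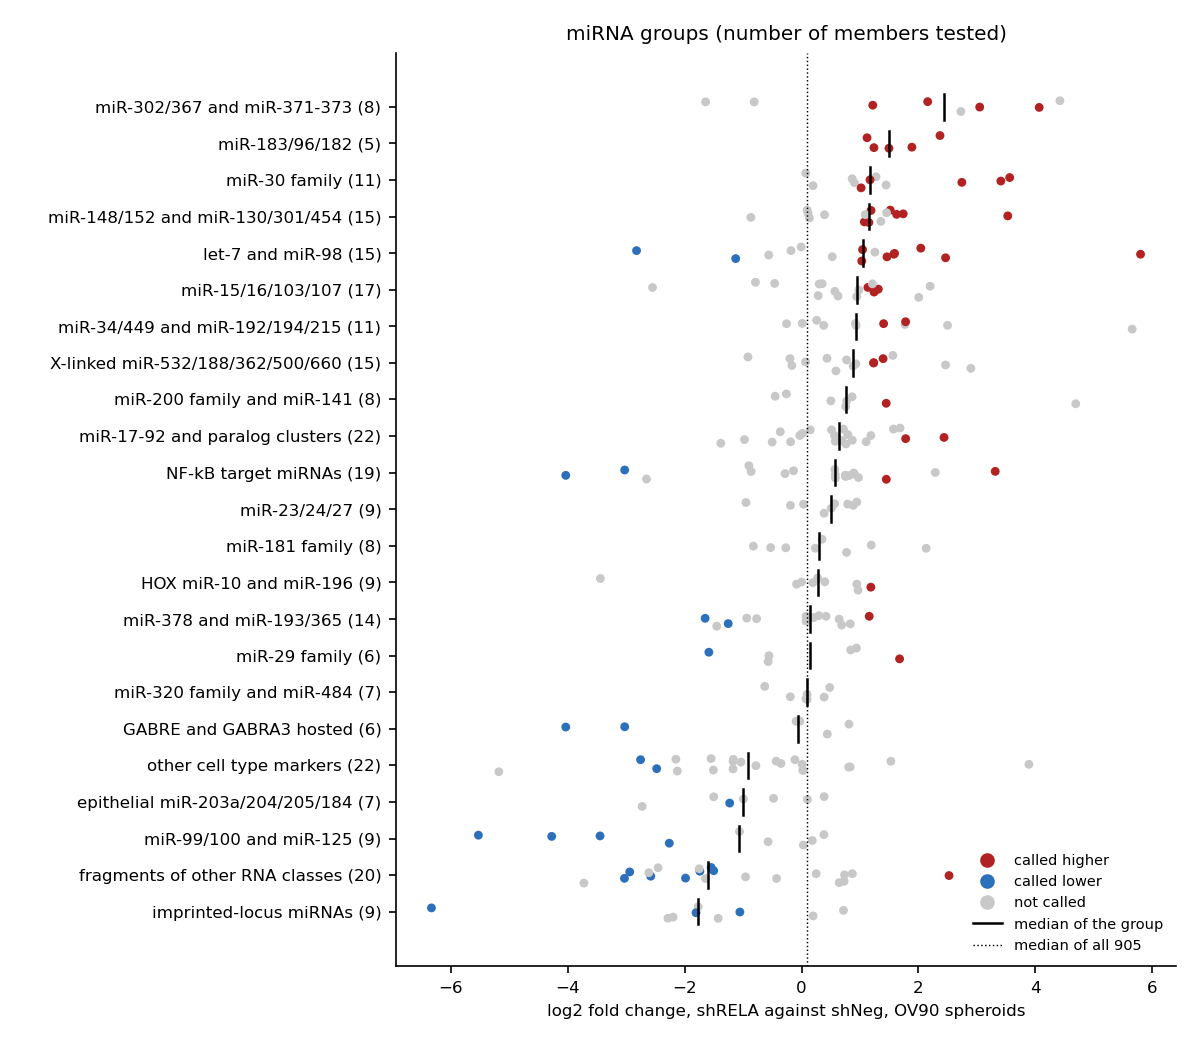
log2 fold changes of shRELA against shNeg in spheroids (horizontal) for the members tested in each of 23 groups of miRNAs, red where called higher, blue where called lower and gray where not called. Black bars are group medians and the dotted line is the median of all 905; points beyond about 4 on either side mostly have few counts, and the let-7 group holds calls on both sides of 0.

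Of the 9 imprinted-locus arms tested, 0 were called higher and 3 lower by edgeR's quasi-likelihood test. Without shNeg replicate 1, 0 were higher and 2 lower, as miR-335-5p was gained and both arms of miR-483 were lost. Both arms of miR-483, from an intron of IGF2, fell: miR-483-5p fell from 71803, 23246, 16082 and 12336 CPM to 10908, 8098, 8279 and 8003 CPM (-1.81 ± 0.33), and miR-483-3p by 1.06 on the log2 scale. shNeg replicate 1 held 8.02% of its counts on miR-483-5p, against 1.61% to 3.17% in the other shNeg libraries. Without it, the log2 fold changes were -0.97 and -0.85 and neither arm was called. The third call was miR-675-3p, at 17 counts in all with shNeg and 0 with shRELA, at least 1.86-fold lower with a floor of 3 counts per library.

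Among epithelial and endocrine miRNAs, miR-375-3p fell from 1599, 3950, 5526 and 5725 CPM to 2752, 1503, 1529 and 1376 CPM (-1.23 ± 0.25), with shNeg replicate 1 inside the range of the shRELA libraries. It was the 1 call among 7, and without shNeg replicate 1 miR-205-5p was called as well. In the miR-378 and miR-193 with miR-365 group, 1 of 14 arms was higher, miR-378a-3p (1.16 ± 0.18), and 2 were lower, miR-193a-5p (-1.26 ± 0.34) and miR-193b-5p (-1.65 ± 0.31). The call of miR-193a-5p was lost in 9 of 21 alternatives, among them limma and leaving out any 1 of 5 libraries. Of the markers of other cell types, the erythroid miR-486-5p fell from 707, 412, 467 and 448 CPM to 97.9, 74.6, 62.7 and 66.1 CPM (-2.76 ± 0.24), and the mesenchymal miR-143-3p from 57.2, 38.2, 25.7 and 30.9 CPM to 5.62, 5.25, 5.82 and 9.88 CPM (-2.48 ± 0.30). The groups of both were separate, whereas miR-451a, the defining erythroid miRNA, had at most 3 counts in any of the 8 libraries.

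Among the 10 lowest log2 fold changes of called miRNAs averaging 10 CPM or more with separate groups, 6 were of miRNAs whose highest level was in shNeg replicate 1 and that belong to none of the families above. miR-4516 was at 1879, 391.8, 206 and 164 CPM with shNeg and at 48.3, 46.2, 53.3 and 61.9 CPM with shRELA (-3.65 ± 0.49). miR-7704 was at 82.9, 22.1, 13.3 and 16.1 CPM against 2.81, 3.68, 3.13 and 4.18 CPM (-3.26 ± 0.55). miR-760 was at 950, 286, 185 and 164 CPM against 64.7, 48.9, 44.8 and 63.8 CPM (-2.83 ± 0.40). Without that library the log2 fold changes of these 3 were -2.27, -2.29 and -1.92, and all were still called.

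The same held for miR-6821-5p (-3.77 ± 0.56, or -3.14 without it), miR-4488 (-3.03 ± 0.53, or -1.78) and miR-3960 (-2.94 ± 0.57, or -1.70). The list of miRNA entries that match fragments of small nucleolar, ribosomal and other RNAs holds miR-4488 and miR-3960, and of its 20 members tested 1 was called higher and 7 lower. Its median was -1.60 on the log2 scale, and without shNeg replicate 1 the counts were 2 higher and 5 lower.

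Base composition was compared for the 795 miRNAs with a RefSeq sequence. Those called higher had a median GC content of 43.5%, those called lower of 60.0% and all tested of 54.5%. Without shNeg replicate 1 the medians were 43.5% for those higher and 54.5% for those lower, the latter the same as over all tested. Of 66 miRNAs with at least 70% GC, 0 were called higher and 14 lower by edgeR's quasi-likelihood test, beside 7.51% and 7.62% over all miRNAs, with a median log2 fold change of -1.16. Without shNeg replicate 1, 2 were higher and 8 lower, with a median of -0.55. Of 98 with less than 40% GC, 17 were called higher and 1 lower, or 13 and 3 without that library. Over 295 miRNAs averaging 10 CPM or more, GC content and log2 fold change had a Spearman's rho of -0.48, or -0.45 without shNeg replicate 1, and of 0.05 for the adherent RELA comparison. This correlation is across miRNAs within one set of libraries, which are not independent replicates and share depth and scaling. Weighted by counts, the mean GC content was 48.2% to 48.7% in the shNeg spheroids and 44.5% to 46.2% in the shRELA spheroids. It was 44.9% to 46.0% in the shRELB spheroids, close to that with shRELA, and 45.4% to 46.1% in the adherent shNeg and shRELA libraries. Its part in the results was not tested.

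The arms of a hairpin were set side by side. Of 214 hairpins with both arms tested, 11 had both called, 9 higher and 2 lower, and both arms had the same direction in all 11. Without shNeg replicate 1, 5 of the 11 still had both arms called (miR-30a, miR-148a, miR-182, miR-183 and miR-99a). The other 6 were let-7e, miR-15b, miR-130a, miR-302a and miR-454, which rose, and miR-483, which fell. In 52 of the 214, 1 arm was called. Of 58 clusters of hairpins within 10000 bases of each other, 13 had at least 2 called miRNAs, which were all higher in 9, all lower in 2 and mixed in 2. Over all miRNAs, 15.1% were called. The called miRNAs of a cluster could be 2 arms of 1 hairpin. In the cluster of let-7e, miR-99b and miR-125a, the 2 called were both arms of let-7e. The mixed clusters were those of let-7a with let-7b and of let-7a with miR-100, and since let-7a-5p counted in each of its clusters, its rise cannot be assigned to either.

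Low counts limit part of the calls. For 15 of the 137, every library of 1 group had at most 3 counts, 9 in shNeg and 6 in shRELA, and none of them had a group mean above 15.6 CPM. Just inside the threshold the FDR was 0.00958, and just outside it was 0.0105 among folds above 2. The arm let-7f-1-3p, at 0 in all shNeg libraries and at 0.448 to 4.20 CPM with shRELA, is one of these.

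The effect of RELA knockdown was then set beside that in adherent cells, which share no library with the spheroids. In adherent cells 34 miRNAs were called, 3.76% of those tested. Of these, 18 were also called in spheroids, all with the same direction, 7 higher and 11 lower, which is 13.1% of the spheroid calls and 52.9% of the adherent calls. They held miR-30a-5p, miR-30a-3p, miR-30c-2-3p and miR-155-5p among the rises, and let-7b-5p, let-7c-5p, miR-125b-5p, miR-143-3p, miR-224-5p, miR-375-3p and both arms of miR-99a among the falls. miR-224-5p was at 2297 ± 111 CPM (SD, n = 4) in adherent shNeg and 289 ± 42.2 CPM in adherent shRELA, a log2 fold change of -2.99 beside -3.03 in spheroids.

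The difference between the cultures was tested as an interaction in the same fit, and 69 miRNAs (7.62%) passed, 39 with a larger log2 fold change in spheroids and 30 with a smaller one. With median-ratio size factors 34.8% of the interactions were above 0 and with library totals 27.5%, against 56.5% with TMM. Of the 137 spheroid calls, 47 had a called interaction. The 137 were selected on spheroid libraries that also enter the interaction, so the 47 are not comparable with the 7.62%. In adherent cells 53 of the 137 had the opposite sign, and 0 of these were called there. let-7a-5p was at 82209 ± 2953 CPM in adherent shNeg and 103014 ± 11223 CPM in adherent shRELA, and its interaction was 1.14 ± 0.19 (FDR = 9.67e-05, edgeR). The interactions of let-7f-5p (1.22), let-7g-5p (1.29) and miR-98-5p (1.61) were called as well, whereas those of let-7b-5p (-0.74) and let-7c-5p (0.45) were not.

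miR-200c-3p had opposite signs in the cultures, with 3171 ± 63.2 CPM in adherent shNeg and 2299 ± 355 CPM in adherent shRELA, and an interaction of 1.91 ± 0.28 (FDR = 2.92e-05, edgeR). miR-335-5p did too, at 63.0 ± 10.7 CPM and 135 ± 74.7 CPM, with an interaction of -2.87 ± 0.69. miR-125b-5p fell further in adherent cells, from 505 ± 29.8 to 15.2 ± 1.16 CPM (-5.05), an interaction of 1.60 ± 0.30, and the shRELA levels in the cultures were close. The largest interaction above 0 among miRNAs averaging 10 CPM or more over the 16 libraries was that of miR-99a-5p (3.27 ± 0.76), followed by miR-29b-1-5p (2.21 ± 0.46) and miR-551b-5p (2.09 ± 0.49). For miR-99a-5p it stood for a smaller fall in spheroids (-2.26) than in adherent cells (-5.54). The interactions of miR-99a-5p and miR-551b-5p each lost their call in 3 of 28 alternatives. For miR-99a-5p these included leaving out spheroid shRELA replicate 1.

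The lowest were miR-760 (-3.52 ± 0.61), miR-1306-5p (-3.49 ± 0.68) and miR-1275 (-3.18 ± 0.53), and each was highest in shNeg replicate 1 of the spheroids. miR-760 was at 3.48 ± 0.78 CPM in adherent shNeg and 5.72 ± 0.42 CPM in adherent shRELA, far below its spheroid levels of 44.8 to 950 CPM.

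**Figure D5:**
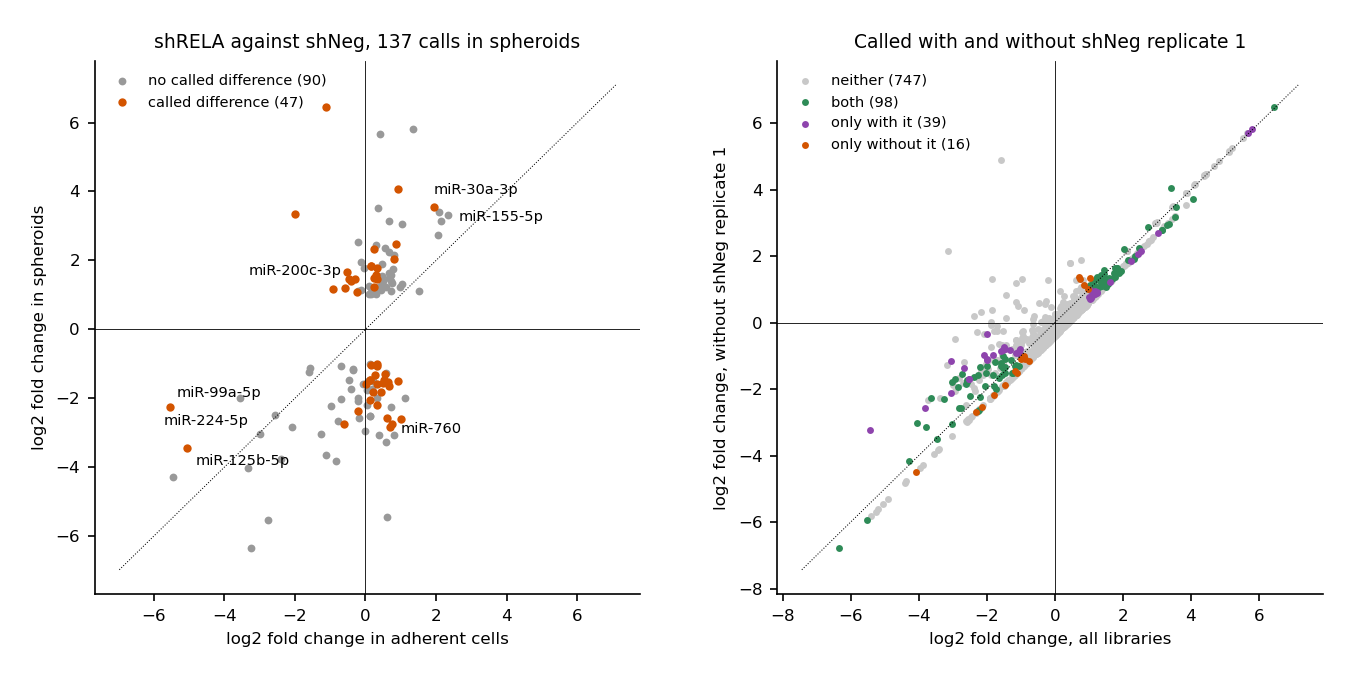
Left, log2 fold change of shRELA over shNeg in adherent cells (horizontal) and in spheroids (vertical) for the 137 miRNAs called in spheroids, orange for the 47 whose difference between cultures was called. Right, log2 fold change in spheroids with all libraries (horizontal) and without shNeg replicate 1 (vertical), with 98 miRNAs called both ways, 39 only with it and 16 only without it; the dotted lines mark equality.

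Finally, the shRELA spheroids were compared with the shRELB spheroids directly, with no control library in the contrast. In this comparison 60 miRNAs were called, 6.63% of those tested, 25 higher and 35 lower with shRELA, and 31 of the 137 were among them. Against the same shNeg libraries, shRELB called 121 miRNAs (13.4%), so the fold changes of the knockdowns share their controls and are only set side by side. Of the 10 highest log2 fold changes described above for shRELA, 9 were also called for shRELB against shNeg, and of the 10 lowest, 7 were. Between the knockdowns, 3 of the 10 highest and 4 of the 10 lowest were called. miR-155-5p was at 72.1 ± 6.62 CPM with shRELB (3.84 against shNeg, 3.31 for shRELA) and miR-224-5p at 300.96 ± 119 CPM (-2.61, and -3.03 for shRELA). Neither differed between the knockdowns by the call, with a log2 difference of -0.52 ± 0.30 for miR-155-5p and of -0.41 ± 0.20 for miR-224-5p.

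The members of the miR-99a/let-7c/miR-125b group did differ. miR-125b-5p was at 331 ± 78.1 CPM with shRELB, and the log2 difference of shRELA from shRELB was -4.14 ± 0.24 (FDR = 2.07e-15, edgeR). let-7c-5p was at 2111 ± 256 CPM with shRELB, a difference of -1.999 ± 0.18, and miR-99a-5p at 18.1 ± 4.74 CPM, a difference of -3.32 ± 0.50. let-7b-5p fell with each knockdown and further with shRELB, to 269 ± 34.8 CPM, a difference of 1.12 ± 0.18. miR-30a-5p (1.24 ± 0.20) and miR-30a-3p (1.06 ± 0.21) were higher with shRELA than with shRELB.

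Further miRNAs separated the knockdowns. The 3 lowest differences of shRELA from shRELB among miRNAs averaging 10 CPM or more over the 8 libraries were miR-135b-5p (-4.17 ± 0.46), miR-125b-5p and miR-143-3p (-2.96 ± 0.30). The 3 highest were miR-105-5p (2.46 ± 0.20), miR-215-5p (2.39 ± 0.41) and miR-767-5p (2.22 ± 0.16). miR-105-5p and miR-767-5p share the GABRA3 locus, and they were at 38.4 ± 5.48 and 123 ± 12.6 CPM with shRELB. miR-302a-5p was at 1373 ± 102.6 CPM with shRELB, a difference of -2.93 ± 0.22, and miR-483-5p at 36714 ± 11383 CPM, a difference of -2.06 ± 0.33.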

How the data were processed

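Small RNA libraries of OV90 cells were prepared with the QIAseq miRNA kit. According to the methods, the authors removed adapters (Cutadapt) and matched the reads to miRBase entries (miRDeep2), and the submitters' notes give the build as GRCh38. The deposited table is titled as CPM, but its values are estimated counts of each mature miRNA with no adjustment for sequencing depth. The sources used here do not state whether unique molecular indices were collapsed. Values that were not whole (3.04% of non-zero values, on 84 of 2656 miRNAs) were rounded, and 0 sample columns were left unmapped. The 905 miRNAs that reached 1 CPM in 4 or more of the 24 libraries were fitted with edgeR 4.0.16 in R 4.3.3, with TMM scaling and the 6 groups as the only term, by the quasi-likelihood test. Because all groups share the fitted spread, every library bears on each FDR. Benjamini-Hochberg adjustment covered all 905, and SE is the log2 fold change over the root of F. No pair of replicates agreed within sampling noise. Sequences and hairpins were taken from RefSeq GRCh38.p14 (795 and 708 of 905 matched) and host genes from GENCODE. The members and lists, and the rule for the miRNAs named, were chosen with earlier results of these data known. Named were the 10 highest and 10 lowest log2 fold changes among called miRNAs averaging 10 CPM or more with separate groups, those the study singled out, the 10 most abundant, called members of each list, and the 3 highest and 3 lowest differences from adherent cells and from shRELB. Alternatives were limma 3.58.1 on log2(CPM + 1), DESeq2 1.42.0, the likelihood ratio test, other filters, scalings and thresholds, thinning to the smallest total, the replicate block, only the groups compared and each library left out. The test was also run on simulated data. Raw reads were not analysed here.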

Additional observations from a re-analysis of the deposited data

Results flagged for a closer look

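For 17 of 88 groups of 4 libraries examined, 1 library lay far from the other 3. Its gap to the nearest passed Dixon's limit at the 95% level. Chance gives about 1 in 20 for independent groups of normally distributed values. These groups reuse the same 8 libraries and mostly hold CPM values not on a log scale, some near 0. The 17 are therefore not comparable with 1 in 20. Of the 17, 9 were shNeg replicate 1. It had counts for 432 miRNAs, and it was high for miR-4516 (1879 CPM, others 164 to 391.8), miR-7704 (82.9, others 13.3 to 22.1), miR-4488 (257, others 24.6 to 63.4), miR-760 (950, others 164 to 286), let-7b-5p (6197, others 3150 to 3653) and miR-452-5p (39.6, others 6.16 to 8.42). It was at 0 CPM for miR-183-3p (others 27.4 to 30.5) and for miR-675-5p (others 2.05 to 2.29). shNeg replicate 4 was high for miR-100-5p (24.6 CPM, others 0 to 2.57). In the shRELA group, replicate 1 was high for miR-30c-2-3p (85.8 CPM), miR-125a-5p (122185), miR-93-5p (71794), miR-92a-3p (56687) and miR-483-5p (10908), replicate 4 for miR-224-5p (260, others 212 to 220), and replicate 2 for miR-100-5p, where 0.525 CPM is 1 count.

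The log2 effect of shRELA in spheroids minus that in adherent cells passed the interaction test of edgeR for 14 of the miRNAs examined. It was above 0 for miR-125b-5p (1.60), miR-30a-3p (1.62), miR-98-5p (1.61), miR-551b-5p (2.09), let-7f-5p (1.22), miR-151a-5p (1.68), miR-151b (1.68), miR-200c-3p (1.91) and let-7a-5p (1.14). It was below 0 for miR-760 (-3.52), miR-486-5p (-2.16), miR-335-5p (-2.87), miR-483-5p (-2.25) and miR-423-5p (-1.40). For miR-125b-5p and miR-30a-3p the effect had the same sign and was called in each culture, at -3.45 and -5.05 for the first and at 3.56 and 1.94 for the second. Over all 905 miRNAs, 7.62% passed the interaction test. Many of the miRNAs examined here were named for fold changes in the same spheroid libraries, so the 14 are not comparable with that share.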

How the results depend on the processing

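Of 105 named results, 91 were called, and 0 of the 91 reversed under any alternative run. They lost their call in 258 of 1934 instances, and 37 never did. An FDR below 0.05 and no fold threshold only loosened the same fit, so no call could be lost or reversed there. Every count of alternatives in the text includes both. For spheroid shRELA against shNeg, 15.1% of the miRNAs tested were called (137). Thinning to the smallest total gave 7.96% (72, of which 37.5% higher) and fitting only the groups compared 10.1% (66). The other alternatives gave 101 to 201 calls, and leaving out each library 12.4% to 17.6%. For the interaction (7.62%), an FDR below 0.05 gave 12.04%, thinning 4.42% and leaving out each library 5.65% to 9.06%. For shRELA against shRELB (6.63%), the likelihood ratio test gave 10.7%, an FDR below 0.05 gave 11.8%, thinning 3.54% and leaving out each library of these groups 5.94% to 7.52%. Without spheroid shNeg replicate 1, an alternative chosen after seeing the data that can act only through the shared fit, it was 10.9%. For adherent shRELA (3.76%), thinning gave 2.43% (9.09% of them higher), only the groups compared 8.71%, and leaving out each library 2.77% to 3.66%, or 4.78% without spheroid shNeg replicate 1. With library totals 25.4% of the calls of shRELA against shRELB were higher, against 41.7%, and 17.6% of the adherent calls, against 29.4%. After each group's mean log2 level was subtracted, libraries of the same number correlated at -0.04, 0.12, 0.03 and -0.04 over 335 miRNAs. Whether the numbers pair the libraries was not tested. With the replicate block, 13.7%, 6.19%, 6.41% and 3.43% were called in the 4 comparisons. Reversals were of uncalled values near 0. miR-105-3p moved to 0.11 with limma and ranged from -0.47 to 0.26 when 1 library was left out (0.19 without shRELA replicate 2 and 0.15 without shNeg replicate 4). miR-30e-5p moved to -0.019 with a filter at a mean of 10 CPM and to -0.21 with library totals, and miR-125a-5p to -0.071 and -0.19. miR-93-5p ranged from -0.24 to 0.025 when 1 library was left out (0.0027 and 0.015 were other values) and was 0.0080 with only the groups compared and no shNeg replicate 1. miR-320a-3p moved to -0.11 with the filter, -0.086 with median-ratio factors and with DESeq2, -0.33 with library totals, -0.12 with thinning and -0.033 with only the groups compared and no shNeg replicate 1, and ranged from -0.077 to 0.22 when 1 library was left out (-0.055 without shRELA replicate 1). The causes were not tested. Depth limits the miRNAs near 3 counts, and the control libraries are the shallower ones.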
